A study of Rattus norvegicus with 14 samples.

Results

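The constitutive proteasome genes were described in cultured rat aortic smooth muscle cells given platelet-derived growth factor (PDGF), with or without the BET inhibitor JQ1. They were chosen by symbol alone: every gene of the files whose name starts with Psma, Psmb, Psmc or Psmd and a digit, leaving out the inducible catalytic subunits Psmb8, Psmb9 and Psmb10. The pattern matched 38 of 17312 genes. Of these, 31 encode the subunits of the 26S proteasome: 7 of the alpha ring, 7 of the beta ring, 6 ATPases and 11 other subunits of the regulatory particle. The other matches included Psmd5, Psmd9 and Psmd10, chaperones that help to assemble the ATPase ring. Psma8, the alpha subunit of testis, and Psmb11, the beta subunit of the thymus, also matched. So did Psma3l, a separate entry that RefSeq lists as another name of Psma3. The last was Psmc3ip, a protein of meiotic recombination that is no proteasome subunit.

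The proteasome degrades proteins that carry ubiquitin chains. Its core particle is a barrel whose outer alpha rings form a gate and whose inner beta rings hold the proteolytic sites, and its regulatory particle binds ubiquitin, removes it, and unfolds the protein with a ring of ATPases. In vascular smooth muscle cells, protein turnover through this path is known for clearing short-lived cell cycle regulators when the cells divide. Transcript levels of its genes were measured here, not the amount or activity of the enzyme.

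The cells were commercial primary rat aortic smooth muscle cells, kept without serum for 24 h in all 5 groups. They were left unstimulated (0 h, 2 libraries), or given PDGF at 925 ng/ml, per the labels, for 2 h or 24 h (3 libraries each), or first treated with JQ1 at 500 nM for 3 h and then given PDGF for 2 h or 24 h (3 libraries each). JQ1 is a small molecule that keeps BET bromodomain proteins off acetylated histones. Polyadenylated RNA was sequenced in 14 libraries. Cells with JQ1 alone and unstimulated cells at 2 h or 24 h were not analysed here, so PDGF and time in culture cannot be told apart in comparisons with 0 h, and no label says that the libraries of a group came from separate cultures: p-values measure only the spread between these libraries, which may be technical. Libraries are named by group and by the digit of their column (0, 1 or 2).

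Levels are given as normalised FPKM, fragments per kilobase of transcript and per fixed number of mapped reads, after the authors' normalisation. That normalisation brought the added spike-in RNAs closer together: over 30 spike-ins, library medians ranged from -0.42 to 0.37 on the log2 scale before and from -0.12 to 0.11 after it. Differences on this table are called the spike-in scale, and are differences of log2(normalised FPKM + 1), which understate changes of low genes. The second scale, called median-centred, takes the authors' unnormalised FPKM and sets the typical gene of each library to the same level. The scales differed in where the typical gene lay: over all genes tested, the median spike-in scale difference between 24 h of PDGF and unstimulated cells was 0.41, and between 24 h and 2 h of PDGF it was 0.39. Adding JQ1 moved that median by -0.29 in the 2 h libraries and by -0.48 in the 24 h libraries. A gene counted as changed had an adjusted p under 0.05 in limma, with Benjamini-Hochberg adjustment over all genes tested. Depth is unknown, and 9901 to 11503 genes were above 0 in a library.

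The smooth muscle markers moved strongly with the groups. All 5 (Acta2, Tagln, Cnn1, Myh11 and Myocd) were present, and their summed level was 8705.7 to 10548.4 at 0 h, 10018.1 to 13420.4 with PDGF at 2 h, 12813.3 to 13656.7 with JQ1 plus PDGF at 2 h, 1665.7 to 1899.2 with PDGF at 24 h and 305.3 to 458.7 with JQ1 plus PDGF at 24 h. Acta2 and Tagln made up most of it. At 2 h their means were higher with JQ1 plus PDGF than with PDGF (6198.4 against 6011.8 and 6621.0 against 4770.7). Those of Cnn1 (515.3 against 675.0), Myh11 (2.68 against 5.01) and Myocd (0.552 against 4.33) were lower. Cdh5, Ptprc and Dpt, 1 gene each of the endothelial, leukocyte and fibroblast lists, were at 0 in all 14 libraries of the unnormalised table. Eng of the endothelial list, Cd14 of the leukocyte list and Lum of the fibroblast list were present. Lower but detected were Pdgfra and Pi16 of the fibroblast list (means of 24 and 3.38 with PDGF at 24 h). So were Tek of the endothelial list (2.11 in that group) and Cd68 of the leukocyte list (7.77 with JQ1 plus PDGF at 24 h). Summed over the 5 endothelial markers the level was 42.8 to 47.8 at 0 h, 120.0 to 144.1 with PDGF at 24 h and 17.9 to 24.1 with JQ1 plus PDGF at 24 h, and Eng made up nearly all of it. The sum over 4 leukocyte markers was 13.7 to 17.9, 50 to 72.6 and 7.92 to 18.2 in the same groups, and over 5 fibroblast markers 120.8 to 128.1, 132.1 to 150.1 and 5.54 to 7.51. In the 2 h groups these sums were 39.3 to 58.3 (endothelial), 16.3 to 26.1 (leukocyte) and 99.7 to 119.7 (fibroblast) with PDGF, and 16.9 to 19.4, 5.5 to 8.61 and 74.9 to 83.9 with JQ1 plus PDGF. The part of these shifts in the proteasome values was not tested, and in bulk RNA fewer cells of a type cannot be told from less RNA per cell.

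All 31 matched subunit genes of the 26S proteasome were expressed in unstimulated cells, at unequal levels. The beta ring genes Psmb1 and Psmb4, which encode subunits without a proteolytic site, were highest at 319.2 ± 19.2 and 240.0 ± 15.2 normalised FPKM (SD, n = 2). The lowest were Psmd11, a lid subunit, at 32.2 ± 2.65, and Psma3, an alpha ring subunit, at 18.8 ± 1.95. Between these lay neighbours that did not differ beyond their spread, such as Psmb7 at 148.2 ± 8.74 and Psmb2 at 148.1 ± 2.91. The place of Psma3 is uncertain, since its reads may have been split with Psma3l, which was at 156.1 ± 5.58. Core particle genes stood above regulatory particle genes: the median gene of the alpha ring was at 137.1 ± 10.2 and of the beta ring at 148.1 ± 2.91, against 93.6 ± 11.4 for the ATPases and 78.1 ± 4.97 for the other regulatory particle subunits (SD of the library medians, n = 2).

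This order of levels changed little with treatment. Across the 31 genes, the rank correlation with the order at 0 h was 0.948 with PDGF at 2 h, 0.946 with PDGF at 24 h, 0.939 with JQ1 plus PDGF at 2 h and 0.920 with JQ1 plus PDGF at 24 h, a description across genes that share libraries and lengths. The level itself moved. On the spike-in scale the median of the 31 genes was 103.4 and 107.4 normalised FPKM in the unstimulated libraries. With PDGF it was 128.9, 125.6 and 152.2 at 2 h, and 192.7, 180.0 and 200.6 at 24 h. It was 95.9, 97.1 and 111.5 with JQ1 plus PDGF at 2 h and 185.9, 155.4 and 151.1 with JQ1 plus PDGF at 24 h. Within each treatment, with or without JQ1, the 24 h libraries thus stood above the 2 h libraries. The ranges of PDGF at 24 h and at 2 h did not overlap. Library 0 of JQ1 plus PDGF at 24 h stood above the rest of its group and inside the range of PDGF at 24 h. On the median-centred scale the mean library median was 108.8 ± 6.76 at 0 h, 132.5 ± 6.8 with PDGF at 2 h and 143.0 ± 3.89 at 24 h. With JQ1 plus PDGF it was 126.0 ± 8.59 at 2 h and 174.7 ± 8.24 at 24 h, the highest of the groups (SD over libraries).

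**Figure D1:**
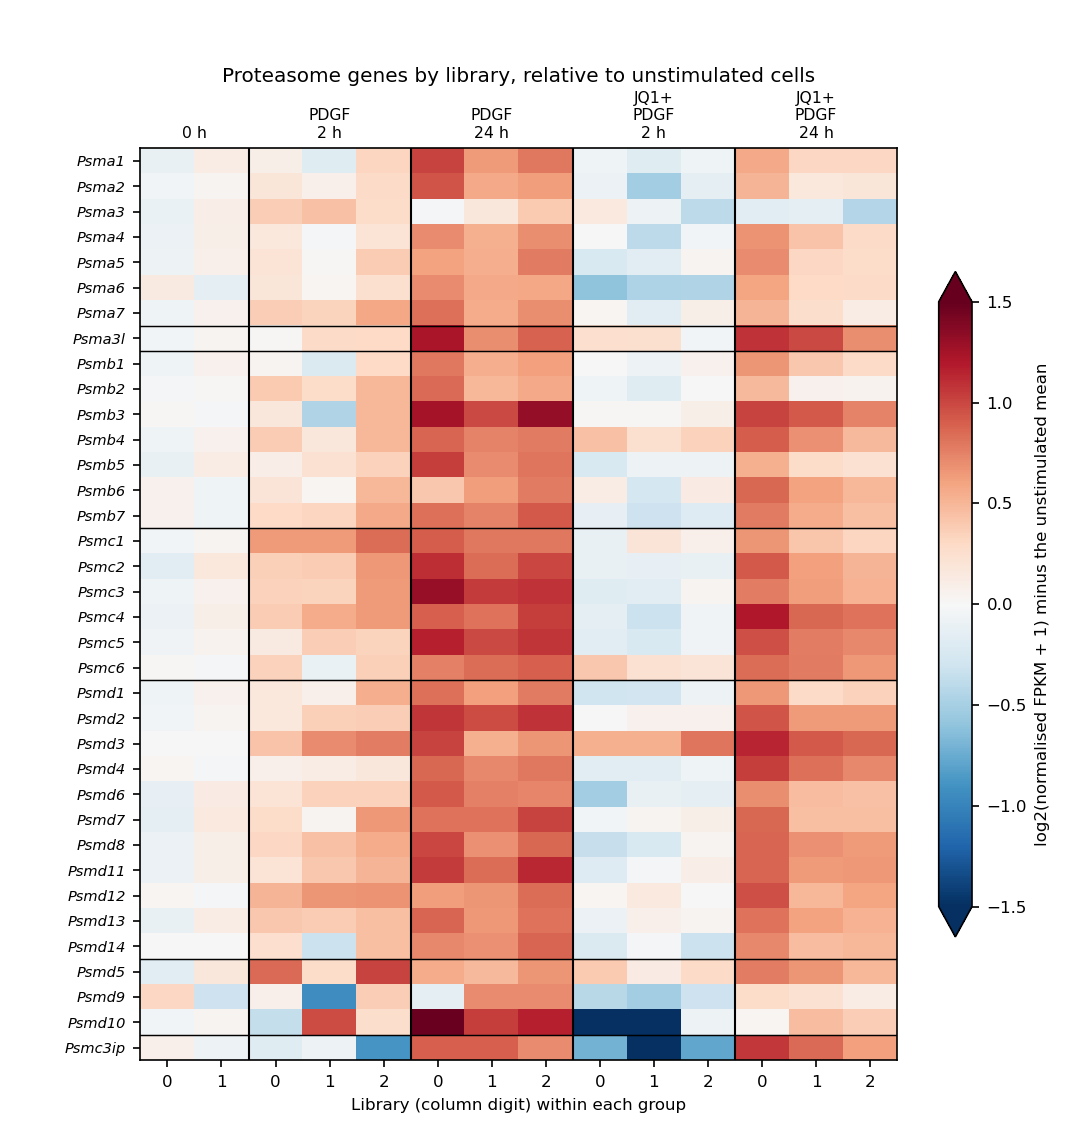
Colour shows log2(normalised FPKM + 1) minus the mean of the unstimulated libraries for 36 proteasome genes (rows, grouped by role; Psma8 and Psmb11, near 0, are left out) in 14 libraries (columns, grouped). On this spike-in scale PDGF at 24 h is the reddest group. JQ1 plus PDGF at 2 h is the palest or bluest for most rows, and Psmd3, Psmb4 and Psmc6 stay red there.

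Symbols were matched to RefSeq (build GRCr8; the files use rn6): 37 of the 38 names are current gene symbols, and Psma3l is listed there as another name of Psma3. The promoter table, which holds 250 bases before to 50 after a gene's start, has an entry for 32. Short motifs were searched in these windows on both strands, and a match is only a match of letters. The sequence TGACNNNGC, the core of the element bound by Nrf1 and Nrf2, factors known for proteasome gene induction, was in 7 of 32 (21.9%), against 12.1% of all 33469 promoters of the table. CCGGAA, an ETS core, was in 18 (56.2% against 15%) and GGGCGG, an Sp1 core, in 23 (71.9% against 33.1%). CCAAT was in 17 (53.1% against 37.5%) and CACGTG in 4 (12.5% against 6.42%). All promoters of the table include those of noncoding and unnamed genes, and motifs can overlap, as TGACNNNGC and GGGCGG do in Psmb2.

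The 7 genes with TGACNNNGC, or GCNNNGTCA on the other strand, include 2 of the 3 genes for proteolytic subunits (Psmb5 and Psmb6). The match nearest the start is shown in capitals with 10 bases on either side, 5′ to 3′ on the gene's strand, because this element is the one most often named for proteasome genes.
Psma3 (chr6:95219727-95219755, plus strand): tctgtggcctGCCGGGTCAgcaccatgag
Psmb2 (chr5:144254980-144255008, plus strand): cccgcgccaaTGACCGGGCggtcgcatat
Psmb5 (chr15:32047421-32047449, minus strand): cgtgaagctgTGACGTCGCggcgttgccc
Psmb6 (chr10:55737854-55737882, plus strand): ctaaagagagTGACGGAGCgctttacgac
Psmd1 (chr9:94157983-94158011, plus strand): gtgaggggacTGACTGAGCagcgcacccg
Psmd3 (chr10:84139941-84139969, plus strand): gtttgcagctGCTCGGTCAtcgtgcggcc
Psmd9 (chr12:39018323-39018351, minus strand): gagtttccggTGACCTCGCcccacctcca
The match starts 60 bases before the gene's start in Psmb5, 24 before it in Psmb6 and 68 before it in Psmb2, and lies after the start in Psmd1 and Psmd3. Over tested genes with a promoter entry, the median log2 difference for PDGF at 24 h against 0 h on the spike-in scale was 0.64 in the 7 with the motif and 0.83 in the 24 without it. For PDGF at 2 h these medians were 0.26 and 0.29. In neither comparison was the median with the motif above that without it.

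The ETS core was the motif with the largest gap between proteasome genes and all promoters. It is shown in capitals, as CCGGAA or as TTCCGG on the other strand, for 5 of the 8 genes that were lower with JQ1 at 2 h on both scales. Of the rest, Psmc4 and Psmd8 had no match and Psmd12 had no promoter entry.
Psma6 (chr6:78514314-78514339, plus strand): tagccataacTTCCGGgaggggcttg
Psmb7 (chr3:42827470-42827495, minus strand): cgccctcggcCCGGAAgcactttctt
Psmc1 (chr6:125122467-125122492, plus strand): gtggatgcgcTTCCGGcggcggcgac
Psmc2 (chr4:14162390-14162415, minus strand): gctgagctacTTCCGGtggggaatta
Psmd10 (chrX:109453608-109453633, minus strand): tgattggtcgCCGGAAcaggaaatgc
In all 5 the match starts within 23 bases of the gene's start, as it also does in Psma2, Psmb4 and Psmd11, which were not among the 8. The medians of genes with and without CCGGAA were 0.30 and 0.25 for PDGF at 2 h and 0.83 and 0.70 for PDGF at 24 h. They were not computed for JQ1 at 2 h, so a link of the motif with that difference was not tested.

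Psmc1 and Psmc4 encode ATPases that rose at 2 h of PDGF and were lower with JQ1 at 2 h, on both scales. Both comparisons use the same PDGF 2 h libraries, so values high there by chance could give both calls. The 2 genes were picked for having these calls. The 250 bases before the start of each gene are shown whole, with matches of the 5 motifs in capitals, to set the promoters side by side.
Psmc1 (chr6:125122247-125122496, plus strand): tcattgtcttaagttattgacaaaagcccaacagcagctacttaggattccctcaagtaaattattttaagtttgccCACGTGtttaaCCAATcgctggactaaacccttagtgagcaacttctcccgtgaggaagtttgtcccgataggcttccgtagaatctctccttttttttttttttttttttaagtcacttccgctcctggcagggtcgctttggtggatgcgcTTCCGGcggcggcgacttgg
Psmc4 (chr1:92485061-92485310, minus strand): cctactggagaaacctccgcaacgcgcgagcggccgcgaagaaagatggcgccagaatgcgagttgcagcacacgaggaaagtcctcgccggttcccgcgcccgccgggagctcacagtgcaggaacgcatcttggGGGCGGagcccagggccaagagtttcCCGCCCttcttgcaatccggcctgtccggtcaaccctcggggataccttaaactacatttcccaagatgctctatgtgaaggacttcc
The promoters share none of the 5 motifs: that of Psmc1 holds the E-box CACGTG, the ETS core and a CCAAT box, and that of Psmc4 holds the Sp1 core on both strands. That these letters are absent from a window says nothing about the factors.

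After 2 h of PDGF, 11 of the 37 proteasome genes tested were higher than at 0 h and 0 were lower. Of all 10133 genes tested, 17.7% were called higher and 12.7% lower. The median proteasome gene differed by 0.29, against 0.01 for all genes. On the median-centred scale 14 of 36 were higher and 0 lower, against 20.3% and 19.3% of all 10001 genes tested, with medians of 0.23 and -0.05, and the 11 genes of the spike-in scale were among the 14. The early rise lay more in the regulatory particle than in the core particle: 4 of 6 ATPase genes and 4 of 11 other regulatory particle genes were higher, with medians of 0.45 and 0.32, against 1 of 7 alpha ring genes and 1 of 7 beta ring genes, with medians of 0.18 and 0.24. The gap between the particles was not itself tested.

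The ATPases Psmc1, Psmc2, Psmc3 and Psmc4, which thread the substrate into the core, rose at 2 h. Psmc1 was at 123.1 and 130.1 at 0 h and at 197.6, 196.9 and 227.0 with PDGF at 2 h. Every PDGF library lay above both unstimulated ones, and the log2 difference was 0.70 ± 0.13 (SE; adjusted p = 0.000686, limma). Psmc4 was at 80.9 and 91.3 at 0 h and at 111.8, 127.4 and 134.7 at 2 h, again without overlap, a difference of 0.53 ± 0.14 (adjusted p = 0.01, limma; 0.114 without unstimulated library 0). Psmc2 differed by 0.46 ± 0.14 and Psmc3 by 0.44 ± 0.13 (adjusted p = 0.0236 and 0.0204, limma). Psmc5 and Psmc6 did not pass, with differences of 0.28 and 0.20.

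Among the other regulatory particle subunits, Psmd3, Psmd8, Psmd12 and Psmd13, all of the lid that holds the deubiquitinase, rose at 2 h. Psmd12 was at 74.7 and 71.7 at 0 h and at 104.6, 116.2 and 117.3 at 2 h, with no overlap (0.61 ± 0.13, adjusted p = 0.00292, limma). Psmd3 was at 66 and 66.4 at 0 h and at 89.1, 108.8 and 113.4 at 2 h, also separate (0.63 ± 0.16, adjusted p = 0.00638, limma). Psmd8 and Psmd13 differed by 0.43 and 0.41. The chaperone gene Psmd5 had the largest difference of all proteasome genes at 2 h, 0.71 ± 0.19 (adjusted p = 0.00983, limma): it was at 25.9 and 33.1 at 0 h and at 53.5, 35.6 and 60.2 at 2 h, so that PDGF library 1 lay only just above the unstimulated ones. Psmc3ip had the lowest difference (-0.38, not past the threshold), at 10.3 and 9.09 at 0 h and 8.41, 9.14 and 4.79 at 2 h. In the core particle, only the alpha subunit Psma7 (0.43 ± 0.14, adjusted p = 0.0283, limma) and the beta subunit Psmb7 (0.40 ± 0.13, adjusted p = 0.0268, limma) passed.

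The call at 2 h leaned on single libraries. Without unstimulated library 0, 3 of the 37 genes passed, without unstimulated library 1, 7 did, and without PDGF library 2, 6 did, while the median difference stayed between 0.25 and 0.35. PDGF library 1 stood apart for a few genes: Psmb3, a beta subunit, was at 79.4 there against 121.9 and 153.3, Psmd14, the deubiquitinase of the lid, at 53.4 against 80.3 and 91.7, Psmd9 at 15 against 31.3 and 38.7, and Psmd10 at 22.5 against 8.28 and 13.3.

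At 24 h of PDGF nearly all proteasome genes were higher: 33 of 37 rose against 0 h and 0 fell, where 37.7% of all genes were called higher and 4.85% lower. The median proteasome gene differed by 0.80, against 0.41 for all genes. All 6 ATPases, all 11 other regulatory particle subunits and all 7 beta ring genes rose, as did 6 of 7 alpha ring genes, Psma3l, and the chaperones Psmd5 and Psmd10. Psma3 (0.18), Psmd9 (0.43), Psmb11 (0.31) and Psmc3ip (0.83) did not pass. On the median-centred scale 19 of 36 were higher and 0 lower, against 14.8% and 13.4% of all genes, and the medians were 0.34 and 0; those 19 were all among the 33. Of the 19, 13 were regulatory particle genes (of 17) and 5 core particle genes (of 14).

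**Figure D2:**
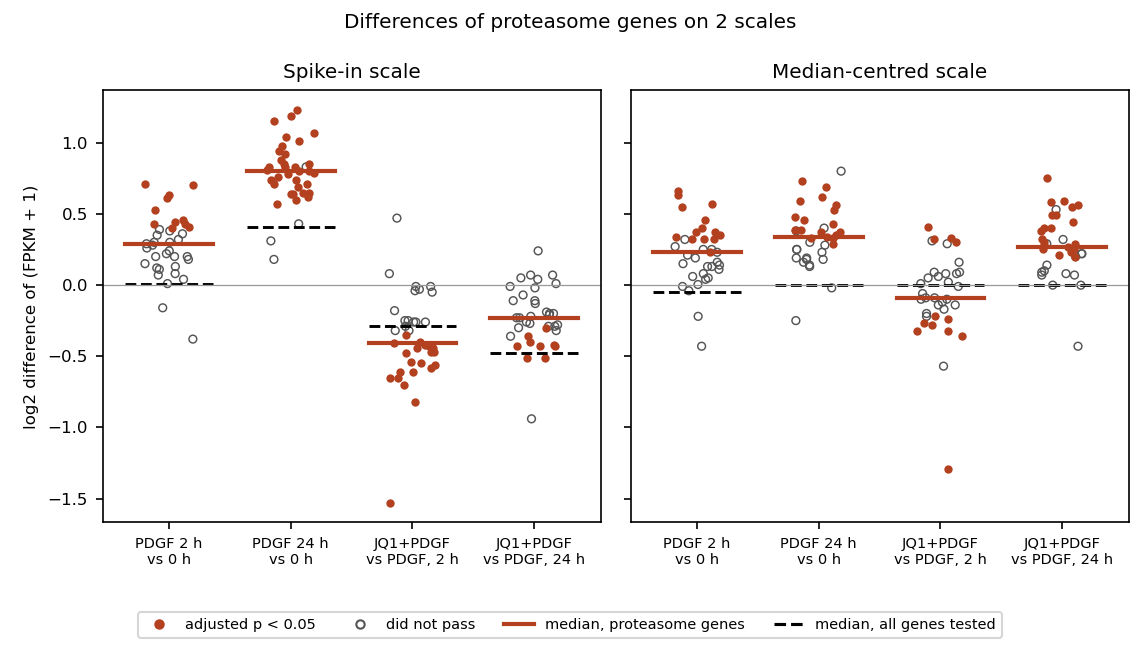
Each point is 1 proteasome gene, placed by its log2 difference of (FPKM + 1) in 4 comparisons (x axis), on the spike-in scale (left) and the median-centred scale (right); filled points passed an adjusted p of 0.05, solid bars are medians of the proteasome genes and dashed bars medians of all genes tested. The solid bar lies above the dashed one for PDGF on both scales (0.80 against 0.41 at 24 h, left), and for JQ1 at 24 h it lies below 0 on the left (-0.23) and above 0 on the right (0.27).

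The largest of these late differences were in a chaperone, a beta subunit and the ATPases. Psmb3 was at 109.8 and 107.4 at 0 h and at 259.3, 216.2 and 272.7 at 24 h, with every PDGF library above both unstimulated ones (1.19 ± 0.20, adjusted p = 0.00025, limma). Psmc3 was at 103.4 and 113.8 at 0 h and at 270.6, 226.3 and 231.9 at 24 h (1.15 ± 0.13, adjusted p = 7.5e-06, limma), and Psmc5 differed by 1.07 ± 0.12 (adjusted p = 5.6e-06, limma). Both ATPases were also called higher on the median-centred scale, by 0.69 and 0.62. Psmd10, also known as gankyrin, was at 10.6 and 11.2 at 0 h and at 32.2, 23.4 and 25.8 at 24 h (1.23 ± 0.44, adjusted p = 0.0346, limma), and this low gene did not pass on the median-centred scale (0.80) or, on the spike-in scale, when 1 of 4 libraries was left out: unstimulated library 0 or 1, or PDGF library 0 or 2 (adjusted p = 0.0628 to 0.144, limma). Psmd2, the large scaffold of the base, rose by 1.04 ± 0.12 (adjusted p = 6.68e-06, limma), and Psmd11 by 1.01 ± 0.14 (adjusted p = 6.06e-05, limma).

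The 3 genes of the constitutive proteolytic subunits rose at 24 h together with the other beta ring genes. Psmb5, which encodes the chymotrypsin-like subunit, was at 129.3 and 152.1 at 0 h, at 150.2, 164.1 and 178.3 with PDGF at 2 h, and at 288.2, 230.5 and 246.2 at 24 h. The 24 h libraries stood above all others, and the difference from 0 h was 0.85 ± 0.14 (adjusted p = 0.000168, limma). Psmb7, the trypsin-like subunit, was at 154.4 and 142.0 at 0 h, at 182.1, 185.9 and 220.3 at 2 h and at 262.3, 248.7 and 281.1 at 24 h, with no overlap between the 3 groups (0.83 ± 0.13 at 24 h against 0 h, adjusted p = 0.000118, limma). Psmb6, the caspase-like subunit, was at 127.7 and 116.3 at 0 h, at 139.3, 123.9 and 172.8 at 2 h and at 161.6, 188.0 and 209.6 at 24 h. Its 2 h libraries overlapped with both other groups, its difference at 24 h was 0.60 ± 0.17 (adjusted p = 0.00949, limma), and on the median-centred scale it did not pass (0.14).

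Psma3 and Psma3l need to be read together, since the files hold both and reads may have been split between them, so both values are uncertain. Psma3 was at 17.4 and 20.2 at 0 h and at 18.3, 21.3 and 24.9 with PDGF at 24 h, overlapping. Psma3l was at 152.1 and 160.0 at 0 h and at 365.9, 252.9 and 290.0 at 24 h, separate (0.94 ± 0.16, adjusted p = 0.000368, limma). Psma3 was 11.9 ± 1.49% of Psma3l at 0 h and 7.27 ± 2.08% with PDGF at 24 h in unnormalised FPKM (SD, n = 2 and 3).

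Between 2 h and 24 h of PDGF, 26 of 37 proteasome genes rose and 0 fell on the spike-in scale, against 44.5% and 11.8% of all genes, with medians of 0.52 and 0.39. Median-centred, 8 of 36 rose and 5 fell, against 26.6% and 25.8%, with medians of 0.14 and 0.05. The 8 that rose on both scales were Psma1, Psmb3, Psmb5, Psmc3, Psmc5, Psmd2, Psmd4 and Psmd11. Psmb3 differed most among them, by 1.11 ± 0.18 (adjusted p = 9.47e-05, limma), and Psmc5 by 0.80 ± 0.11 (adjusted p = 2.06e-05, limma). The early risers Psmc1 (0.13), Psmd12 (0.09), Psmd3 (0.10) and Psmd5 (-0.14) did not pass on the spike-in scale. The 5 that fell on the median-centred scale were these 4, with differences of -0.26, -0.30, -0.29 and -0.53, and Psma3 (-0.58). This comparison shares the 2 h libraries with the one against 0 h. Psmd12 was at 113.5, 116.7 and 131.2 at 24 h, overlapping with its 2 h libraries. Psmc3ip, the recombination gene, was at 8.41, 9.14 and 4.79 at 2 h and at 18.9, 18.8 and 16.4 at 24 h, with no overlap (1.21 ± 0.31, adjusted p = 0.00383, limma).

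On the spike-in scale, 21 of 37 genes were lower at 2 h with JQ1 before PDGF than with PDGF alone and 0 were higher. Of all genes, 34.0% were lower and 7.24% higher. The median proteasome gene differed by -0.41, against -0.29 for all genes. On the median-centred scale 8 of 36 were lower (22.2%) and 4 higher (11.1%), against 21.4% and 20.0% of all genes, with medians of -0.09 and 0. The share called lower was thus near that of all genes on that scale. The 8 lower on both scales were Psma6, Psmb7, Psmc1, Psmc2, Psmc4, Psmd8, Psmd10 and Psmd12. The 4 higher on the median-centred scale were Psmb1, Psmb4, Psmc6 and Psmd3. By role, 5 of 6 ATPases, 6 of 11 other regulatory particle subunits, 4 of 7 alpha ring genes and 3 of 7 beta ring genes were lower on the spike-in scale.

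This comparison shares its PDGF libraries with that of PDGF at 2 h against 0 h, so each gene's levels are given side by side and the comparisons are not set against each other. Psmc4 was at 78, 68.5 and 82.7 with JQ1 plus PDGF, against 111.8 to 134.7 with PDGF alone, and was at 80.9 and 91.3 at 0 h. Its JQ1 libraries lay below every PDGF library and within or below the unstimulated range, and JQ1 differed from PDGF alone by -0.70 ± 0.12 (adjusted p = 0.000419, limma). Psmc1 was at 117.0, 145.0 and 133.0 with JQ1 plus PDGF, below all 3 PDGF libraries and on either side of the unstimulated ones (-0.65 ± 0.11, adjusted p = 0.000367, limma). Psmd12 was at 74.6, 80.8 and 73.5, separate from PDGF alone and close to the unstimulated libraries (-0.56 ± 0.12, adjusted p = 0.00181, limma). Psmb7 was at 136.0, 119.2 and 129.3, below every PDGF and every unstimulated library (-0.61 ± 0.11 against PDGF, adjusted p = 0.000602, limma). These positions relative to 0 h are those of the spike-in scale. On the median-centred scale Psmc1 was at 163.3 ± 12.5 with JQ1 plus PDGF and at 130.7 ± 7.23 at 0 h. In the same order Psmd12 was at 94.8 ± 5 and 75.5 ± 8.18, and Psmb7 at 159.6 ± 15.8 and 154.0 ± 24.2. Psmc4 was at 95 ± 10 and 88.5 ± 0.189 (SD, n = 3 and 2). JQ1 plus PDGF at 2 h was not tested against 0 h.

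Not every gene followed. Psmd3 was at 96.2, 96.1 and 116.0 with JQ1 plus PDGF, overlapping with PDGF alone and above both unstimulated libraries (-0.01 ± 0.14 against PDGF, adjusted p = 0.957, limma). Psmb4 and Psmb1 differed by -0.01 and -0.04 and Psmc6 by 0.08, none past the threshold. Psmc6 was at 61.8, 54.5 and 53 against 59.1, 43 and 59.5. The largest difference was in the chaperone Psmd10, which was at 2.09, 2.7 and 10.3 against 8.28, 22.5 and 13.3, so the groups overlapped (-1.53 ± 0.39, adjusted p = 0.00575, limma). Psmc3ip was at 5.54, 1.44 and 5.24 against 8.41, 9.14 and 4.79, also overlapping (-0.82 ± 0.31, adjusted p = 0.0441, limma), and did not pass without PDGF library 0 or 1 or JQ1 library 1 (adjusted p = 0.11 to 0.229). Of the proteolytic subunits, Psmb5 was at 119.5, 132.6 and 132.9, below its 3 PDGF libraries (-0.35 ± 0.12, adjusted p = 0.0293, limma), but on the median-centred scale the difference was -0.01, and on the spike-in scale it did not pass without PDGF library 1 or 2 or JQ1 library 0 (adjusted p = 0.0605 to 0.108). Psmb6 was at 132.0, 101.0 and 132.8, inside and below the PDGF range (-0.25, not past the threshold).

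**Figure D3:**
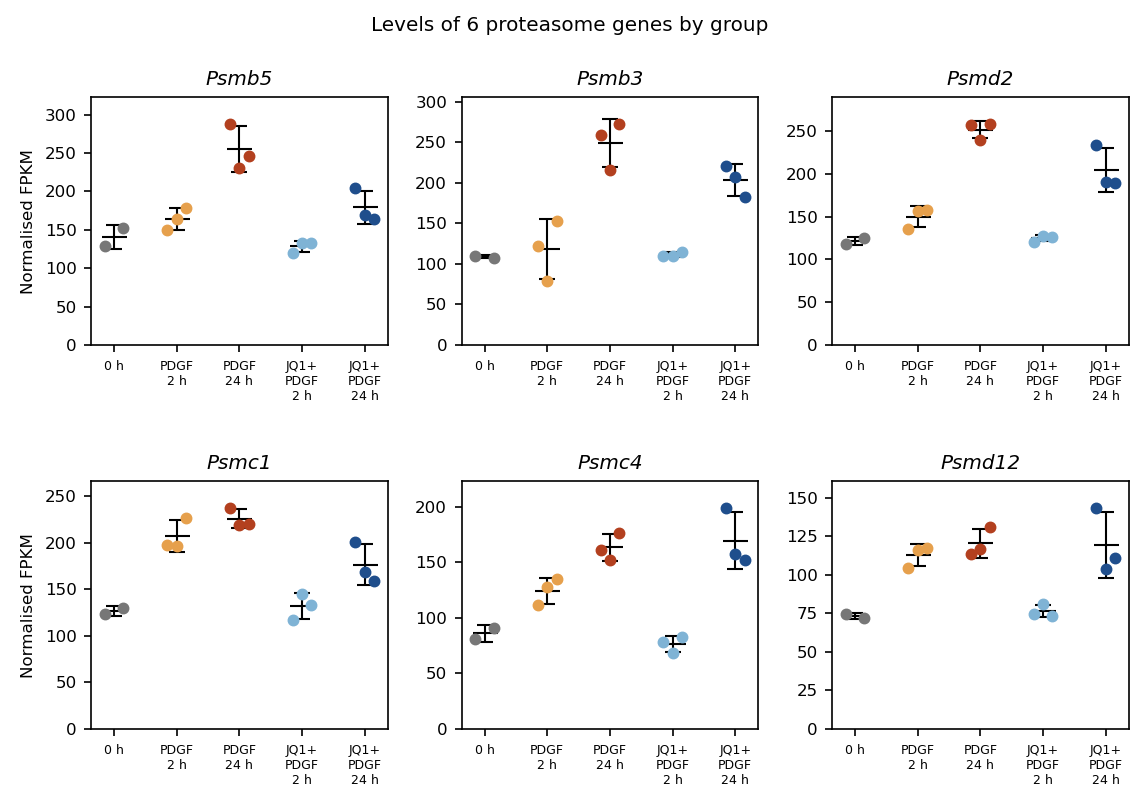
Normalised FPKM (y axis, from 0) of Psmb5, Psmb3, Psmd2, Psmc1, Psmc4 and Psmd12 in the 5 groups; points are libraries, long dashes the mean and whiskers 1 SD (n = 2 at 0 h, 3 elsewhere). The upper genes are highest with PDGF at 24 h, and the lower genes are already high at 2 h (Psmc1, 196.9 to 227.0). On this scale the lower genes are at or near the unstimulated level with JQ1 plus PDGF at 2 h.

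At 24 h the direction of the JQ1 difference depended on the scale. On the spike-in scale 9 of 37 proteasome genes were lower with JQ1 plus PDGF than with PDGF alone and 0 were higher, against 48.5% and 4.61% of all genes. The median proteasome gene differed by -0.23 and the median of all genes by -0.48. On the median-centred scale 21 of 36 were higher and 0 lower, against 23.1% and 25.8%, with medians of 0.27 and 0. The median proteasome gene thus lay above the median of all genes on both scales. No gene was called in the same direction on both, and Psmd2, named for this after its values were seen, was called in opposite directions: it was at 233.9, 190.1 and 189.4 with JQ1 against 256.5, 239.9 and 258.5, a difference of -0.30 ± 0.11 (adjusted p = 0.0234, limma) on the spike-in scale and 0.20 ± 0.06 (adjusted p = 0.0156, limma) on the median-centred scale.

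The 9 lower genes on the spike-in scale were Psma1, Psma2, Psma3, Psma7, Psmb2, Psmb5, Psmc1, Psmc3 and Psmd2. Psmb5 was at 203.9, 169.4 and 164.1 against 288.2, 230.5 and 246.2, with no overlap (-0.51 ± 0.12, adjusted p = 0.00238, limma), and Psmc3 at 185.9, 168.5 and 156.6 against 270.6, 226.3 and 231.9, also separate (-0.51 ± 0.12, adjusted p = 0.00191, limma). Median-centred, both were level, with differences of -0.0007 and -0.0012. Psma2, Psmb2 and Psma3 each fell by 0.43 on the log2 scale, Psma1 by 0.42, Psma7 by 0.40 and Psmc1 by 0.36. Psma1 was at 180.8, 151.5 and 151.1 against 247.0, 189.6 and 211.5, close to overlap. Psmd10 was at 11.1, 15.4 and 14.4 against 32.2, 23.4 and 25.8, separate, but its spread left it short of the threshold (-0.94 ± 0.39, adjusted p = 0.0546, limma).

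The count at 24 h rested on single libraries. JQ1 library 0 was the highest of its group for most genes, and without it 18 genes were lower. Without JQ1 library 1, 4 were lower, without JQ1 library 2, 2 were, and without PDGF library 0, 3 were lower and 1 higher. The median difference stayed between -0.33 and -0.18.

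Of the other proteolytic subunit genes at 24 h, Psmb6 was at 221.8, 185.0 and 173.0 against 161.6, 188.0 and 209.6, with overlap (0.05, not past the threshold). Psmb7 was at 254.2, 218.8 and 202.2 against 262.3, 248.7 and 281.1, with 1 JQ1 library inside the PDGF range and the others below it (-0.23 ± 0.11, adjusted p = 0.093, limma). Psmd3 was at 147.7, 126.2 and 121.4 against 135.1, 96.4 and 105.0, overlapping (0.24 ± 0.14, adjusted p = 0.158, limma). Psmd4, the ubiquitin receptor, was at 183.9, 159.5 and 147.5 against 163.2, 147.5 and 154.7 (0.07), and Psmd5 at 50.7, 46.8 and 41.8 against 43.5, 41.5 and 47 (0.07). Psmd3, Psmd4, Psmd5 and Psmb6 were all called higher on the median-centred scale, by 0.75, 0.58, 0.59 and 0.56. Psma3l did not pass on the spike-in scale (-0.01) while Psma3 did, and Psma3 was 5.3 ± 0.305% of Psma3l in this group (SD, n = 3).

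The difference between JQ1 and its PDGF control was itself compared between 24 h and 2 h, as an interaction in the same model. On the spike-in scale 2 of 37 genes passed and both were higher at 24 h. Of all genes, 4.82% were called higher, a share near that of the proteasome genes (5.41%), and 17.5% lower. The medians of the proteasome genes and of all genes were 0.12 and -0.22. The 2 genes were the ATPase gene Psmc4 (0.74 ± 0.18, adjusted p = 0.00665, limma) and the lid gene Psmd12 (0.53 ± 0.17, adjusted p = 0.0345, limma). Psmc4 was at 199.1, 157.5 and 152.3 with JQ1 plus PDGF at 24 h against 161.5, 152.5 and 176.8 with PDGF alone, overlapping, where at 2 h it had been lower without overlap. Psmd12 was at 143.5, 103.6 and 111.2 against 113.5, 116.7 and 131.2 at 24 h, again overlapping. Psmc4 passed whichever library was left out, whereas Psmd12 did not pass without PDGF 2 h library 1 or 2, PDGF 24 h library 0 or 1, JQ1 plus PDGF 2 h library 0 or 2, or JQ1 plus PDGF 24 h library 0 (adjusted p = 0.055 to 0.0806, limma). The low genes Psmc3ip (0.83) and Psmd10 (0.59) had values as high but did not pass. On the median-centred scale 15 of 36 passed, all higher, against 13.4% and 16.4% of all genes, with medians of 0.31 and -0.03. Of the 15, 12 were regulatory particle genes (of 17), 2 core particle genes (Psma6 and Psmb7, of 14) and 1 the chaperone Psmd5. Psmc4 (0.92) and Psmd12 (0.71) passed on both scales. The lowest interaction values were in Psmb11 (-0.83), Psmb3 (-0.26) and Psma1 (-0.24), none past the threshold.

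As a share of all FPKM in a library, which needs no scale between libraries, the 38 genes made up 0.704% and 0.689% in unstimulated cells. The share was 0.734, 0.654 and 0.692% with PDGF at 2 h and 0.867, 0.831 and 0.88% with PDGF at 24 h. It was 0.641, 0.58 and 0.622% with JQ1 plus PDGF at 2 h and 0.983, 1.02 and 0.949% with JQ1 plus PDGF at 24 h. The 24 h libraries stood above all others, those with JQ1 above those without it, and at 2 h those with JQ1 below those without it, with no overlap in these comparisons. A share moves with the other genes of the library too, and the part of those genes in these shifts was not tested.

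**Figure D4:**
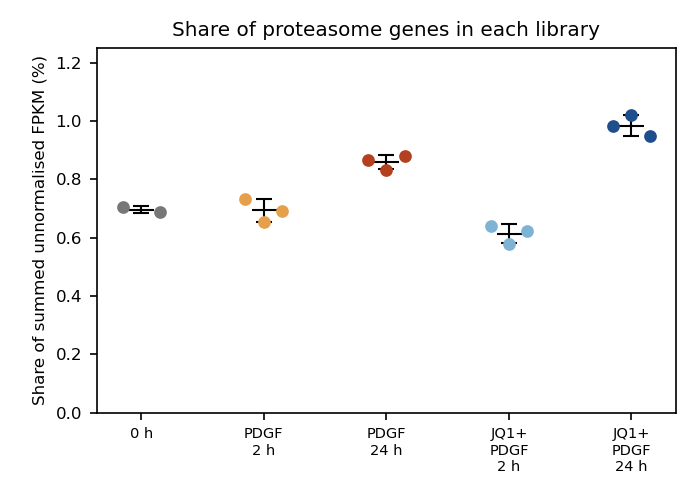
Share of the summed unnormalised FPKM of each library (y axis, %, from 0) that the 38 proteasome genes held, by group; points are libraries, long dashes the mean and whiskers 1 SD. The JQ1 plus PDGF 24 h libraries lie highest (0.949 to 1.02%) and the JQ1 plus PDGF 2 h libraries lowest (0.58 to 0.641%).

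The tissue-specific core subunits stayed at the floor. Psma8 was at 0 in the unnormalised table except for 0.0433 in PDGF 24 h library 0 and 0.0631 in JQ1 plus PDGF 2 h library 1, and was not tested. Psmb11 in the unnormalised table was at 0 and 0.0787 at 0 h, at 0.0326, 0 and 0.0725 with PDGF at 2 h and at 0.608, 0 and 0 with PDGF at 24 h. It was at 0, 1.11 and 0.453 with JQ1 plus PDGF at 2 h and at 0, 0 and 0.0301 with JQ1 plus PDGF at 24 h, so single libraries carried its signal, and it passed in no comparison. The chaperone Psmd9 was at 37 and 23.7 at 0 h and at 26.9, 49.2 and 48.9 with PDGF at 24 h, overlapping, and passed in no comparison either.

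The inducible catalytic subunits replace Psmb6, Psmb7 and Psmb5 in the immunoproteasome. At 2 h of PDGF all 3 rose, Psmb8 by 1.35 ± 0.38, Psmb9 by 1.09 ± 0.29 and Psmb10 by 1.32 ± 0.29 (adjusted p = 0.0136, 0.0104 and 0.00293, limma), and all 3 were also called higher on the median-centred scale. Of all genes, 17.7% were called higher on the spike-in scale and 20.3% on the median-centred scale. At 24 h of PDGF, Psmb9 rose (1.55 ± 0.29, adjusted p = 0.000666, limma), while Psmb8 (0.94) and Psmb10 (0.54) did not pass. Differences between the inducible and the constitutive genes were not tested. With JQ1 at 24 h all 3 fell on the spike-in scale, Psmb8 by 2.48, Psmb9 by 2.25 and Psmb10 by 0.90 (adjusted p = 1.65e-05, 3.38e-06 and 0.00831, limma), where 48.5% of all genes were called lower. Psmb8 and Psmb9 also fell on the median-centred scale, by 2.05 and 1.75, where 25.8% of all genes were called lower and Psmb10 (-0.39) did not pass. Psmb9 as a share of Psmb6 in unnormalised FPKM was 8.54 and 5.41% at 0 h, 17.6, 14.6 and 11.5% with PDGF at 24 h and 3.32, 2.67 and 1.81% with JQ1 plus PDGF at 24 h. The JQ1 plus PDGF 24 h libraries lay below all others. Psmb8 was 4.06 ± 1.95% of Psmb5 with PDGF at 24 h and 0.547 ± 0.435% with JQ1, and Psmb10 was 8.83 ± 0.684% and 5.58 ± 1.53% of Psmb7 (SD, n = 3).

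**Figure D5:**
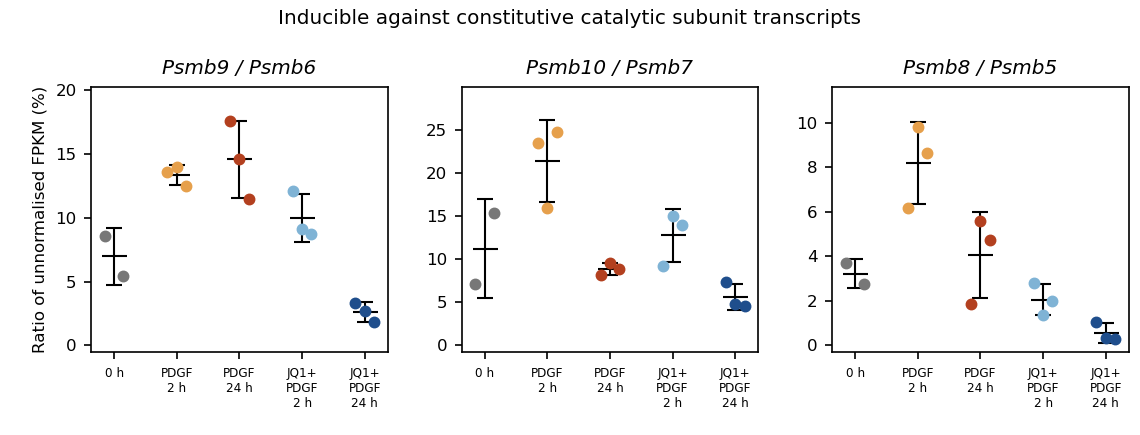
Unnormalised FPKM of each inducible catalytic subunit as a percentage of the constitutive one it replaces (y axis, %), by group; points are libraries, long dashes the mean and whiskers 1 SD. Psmb9 / Psmb6 with JQ1 plus PDGF at 24 h (1.81 to 3.32%) lies below every other group, and Psmb10 / Psmb7 is highest with PDGF at 2 h (15.9 to 24.7%).

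Of the 5 genes for activators and the inhibitor, Psme1 and Psme2, the subunits of the interferon-inducible activator, rose with PDGF at 24 h by 1.08 ± 0.13 and 1.20 ± 0.17 (adjusted p = 1.63e-05 and 6.54e-05, limma) and fell with JQ1 at 24 h by 1.38 and 1.13 on the log2 scale (adjusted p = 1.42e-07 and 1.72e-05, limma). Psme1 was at 85.8, 72.9 and 65.4 with JQ1 against 194.9, 194.4 and 196.4, far apart, and both also fell on the median-centred scale (-0.87 and -0.62). Psme3, the nuclear activator, rose at 2 h of PDGF (0.56 ± 0.12, adjusted p = 0.00284, limma). Psme4 rose with JQ1 at 2 h on both scales, by 0.61 and 0.93. Psmf1, the inhibitor, was at 38.6 and 30.8 at 0 h and at 23.5, 16.2 and 26.3 with PDGF at 2 h, with no overlap (-0.65 ± 0.20, adjusted p = 0.0204, limma), and did not pass at 24 h (0.13). In all, 3 of the 5 were higher and 1 lower at 2 h of PDGF, where 17.7% of all genes were called higher and 12.7% lower.

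Other genes of the pathway were read from lists. Among 12 tested regulatory particle and proteasome-bound proteins, 7 were higher and 0 lower with PDGF at 2 h, and 9 higher and 0 lower at 24 h. Over all genes, 17.7% were called higher at 2 h and 37.7% at 24 h. On the median-centred scale 7 of the 12 were higher at 2 h and 3 at 24 h, against 20.3% and 14.8% of all genes. Adrm1, the ubiquitin receptor of the base, rose by 0.63 ± 0.16 at 2 h and 0.92 ± 0.16 at 24 h (adjusted p = 0.00672 and 0.000269, limma). The stress-inducible proteasome-bound Zfand2a rose by 2.02 ± 0.17 at 2 h of PDGF (adjusted p = 1.83e-07, limma) and with JQ1 at 24 h by 1.62 ± 0.15 (adjusted p = 2.85e-07, limma), when 3 of these 12 genes were higher and 4 lower, against 4.61% and 48.5% of all genes. The deubiquitinase gene Uchl5 was at 16.7, 18.8 and 20 with JQ1 plus PDGF at 24 h against 6.88, 9.97 and 10.3, separate (0.97 ± 0.18, adjusted p = 0.000329, limma), and rose on the median-centred scale too (1.48). Shfm1, the small lid subunit, fell with JQ1 by 0.84 at 2 h and 0.76 at 24 h on the spike-in scale (adjusted p = 3.26e-05 and 3.36e-05, limma). On the median-centred scale 8 of these 12 genes were higher with JQ1 at 24 h and 0 lower, against 23.1% and 25.8% of all genes. Shfm1 was thus not called lower there at 24 h (142.0 ± 14.6 with JQ1 plus PDGF against 169.2 ± 7.46 with PDGF).

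Of 4 tested core assembly factors (Psmg1, Psmg2, Psmg4 and Pomp), 0 rose at 2 h of PDGF and 1, Psmg2, fell (-0.69 ± 0.19, adjusted p = 0.0129, limma). At 24 h, 2 rose on the spike-in scale and 0 on the median-centred scale. Of all genes, 17.7% were higher and 12.7% lower at 2 h, and 37.7% were higher at 24 h (14.8% on the median-centred scale). The ubiquitin gene Ubb fell at 2 h of PDGF by 0.45 on the log2 scale (adjusted p = 0.0185, limma) and was higher than at 0 h after 24 h (1.06 ± 0.13, adjusted p = 2.06e-05, limma). Uba1, the ubiquitin-activating enzyme, rose at both times, by 0.72 ± 0.13 and 0.94 ± 0.13 (adjusted p = 0.000673 and 4.67e-05, limma). Of 6 tested transcription factors and processing enzymes, 2 rose at each time of PDGF, against 17.7% of all genes at 2 h and 37.7% at 24 h. Nfe2l2, which encodes Nrf2, rose by 0.72 ± 0.12 and 0.83 ± 0.12 (adjusted p = 0.000422 and 9.26e-05, limma), and Ddi2, the protease that processes Nrf1, by 0.72 ± 0.21 and 1.20 ± 0.21 (adjusted p = 0.0179 and 0.000402, limma). Nfe2l1, which encodes Nrf1, was not analysed here.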

How the data were processed

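RNA from 14 libraries in 5 groups was read as FPKM from a pair of tables deposited by the authors, one unnormalised and one normalised. Per the submitters' processing notes, HISAT, Cufflinks 2.0.0 and the rn6 build were used. The annotation and the method of normalisation are not given in the sources used here. Columns carry a group and a digit, so each was tied to a group and not to a titled sample. Depth is unknown, and no counting interval can be given.

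limma 3.58.1 in R 4.3.3 was fitted to log2(normalised FPKM + 1) over all 5 groups (9 residual degrees of freedom, mean trend) for genes with at least 1 FPKM in at least 2 libraries. P-values were adjusted by Benjamini-Hochberg over 10133 genes. For the median-centred scale, median-ratio size factors (0.9958 to 1.005) were taken from 9129 genes of the unnormalised table, each library was divided by its own, and 10001 genes were tested. The fit was tested on simulated data. Other settings were a pseudocount of 0.1, no filter, a filter at 5 FPKM, only the groups compared, no mean trend, and libraries left out.

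Library values were given for the 3 highest and 3 lowest differences in each comparison, for Psmb5, Psmb6 and Psmb7, and for genes at 0 in some libraries of a group. The genes, lists and rules were chosen with earlier results of these data known. One list of ubiquitin and unfoldase genes is not reported here as a whole, and some results for related genes are not reported.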

Additional observations from a re-analysis of the deposited data

Results flagged for a closer look

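The difference that JQ1 made differed between 24 h and 2 h, by the interaction test of limma on the spike-in scale, for 2 constitutive proteasome genes and for 7 of the related genes that the report names. Of the 37 constitutive genes tested, 5.41% were thus higher and 0% lower, against 4.82% and 17.5% of all genes. The share called higher was near that of all genes. By list, 1 of 3 inducible subunits was lower, and of 5 activator and inhibitor genes 1 was higher and 3 lower. Of 12 regulatory particle and proteasome-bound genes 3 were higher and 0 lower. Psmc4 (0.74, adjusted p = 0.00665) and Psmd12 (0.53, adjusted p = 0.0345) were called lower with JQ1 at 2 h and not at 24 h. Psme3 (0.56, adjusted p = 0.0163) and the proteasome-bound Uchl5 (0.98, adjusted p = 0.012) and Zfand2a (1.54, adjusted p = 9.67e-05) also had the higher value at 24 h. The inducible subunit Psmb9 (-1.62, adjusted p = 0.0053) and the activator genes Psme1 (-0.91, adjusted p = 0.00117), Psme2 (-0.78, adjusted p = 0.0177) and Psme4 (-0.72, adjusted p = 0.0105) had the lower value at 24 h. All 9 also passed on the median-centred scale, with Psmc4 at 0.92, Psmd12 at 0.71, Psme3 at 0.75, Uchl5 at 1.18, Zfand2a at 1.73, Psmb9 at -1.42, Psme1 at -0.74, Psme2 at -0.59 and Psme4 at -0.53. The range test for a single outlying value was not run, since it needs larger groups than these. The effect of leaving out each library is given with the results for Psmc4 and Psmd12, and is not given for the 7 related genes.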

How the results depend on the processing

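The median-centred scale moved most results. It gave 19 genes higher for PDGF at 24 h (median 0.34), 8 higher and 5 lower for 24 h against 2 h (0.14), 4 higher and 8 lower for JQ1 at 2 h (-0.09), 21 higher and 0 lower for JQ1 at 24 h (0.27), and 15 higher in the interaction (0.31). With PDGF 2 h library 1 also left out, a setting chosen after seeing the data, these were 21 (0.34), 9 and 4 (0.04), 1 and 7 (-0.11), 24 and 0 (0.27), and 17 (0.36), with 17 higher for PDGF at 2 h. On both of these settings 7 genes called lower with JQ1 at 24 h lay above 0: Psma1 at 0.09, Psma2 at 0.07, Psma3 at 0.08, Psma7 at 0.10, Psmb2 at 0.07, Psmc1 at 0.14 and Psmd2 at 0.20. Psmb5 with JQ1 at 2 h was at 0.01 in the second, for which shares over all genes are not given here. A fit of only the groups compared gave 4 higher for PDGF at 2 h, and one without the mean trend 1 in the interaction. Without PDGF 2 h library 1 and PDGF 24 h library 0, JQ1 at 24 h gave 1 higher and 4 lower. The cause was not tested.

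Leaving out each library of the groups compared gave 3 to 14 genes higher for PDGF at 2 h, 31 to 33 for PDGF at 24 h, 24 to 29 higher and 0 to 1 lower for 24 h against 2 h (1 without PDGF 2 h library 1), 16 to 22 lower for JQ1 at 2 h, 2 to 18 lower and 0 to 1 higher for JQ1 at 24 h, and 1 to 3 higher in the interaction. Its median ranged from 0.02 to 0.20. Over the 37 results for named genes, leaving out a library kept the call and direction 161 times and lost the call 56 times; under the other settings the same held 235 times, the call was lost 46 times and the direction turned 15 times. No paired analysis was possible because the columns carry digits and the titles letters, and nothing ties one to the other.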
